A study of Mus musculus with 11 samples.

Results

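The genes described here encode sugar, monocarboxylate and sodium-coupled solute carriers, measured in small intestinal villi of mice that make the BMP antagonist Gremlin in the gut epithelium. Members were all genes on the array whose symbol starts with Slc2a, Slc5a, Slc13a or Slc16a, other than Slc16a10. They came to 42 genes with 68 probes, out of 19057 named genes and 45281 probes. One of them, Slc2a4rg-ps, is a pseudogene that shares only the start of the symbol. A probe counted as measured when its detection p was under 0.01 on 5 or more of the 11 arrays, which held for 31 probes of 21 genes.

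The tested mice were Villin-Gremlin transgenics (5 arrays, replicates 1 to 5) and the controls were wild type (6 arrays, replicates 1 to 6). All were C57Bl/6J mice aged 5 months, and each sample, RNA of isolated small intestinal villi, had its own Illumina bead array. The Villin promoter drives transgenes in gut epithelium, so Gremlin comes from a cell type that does not normally make it. The labels do not say which stretch of the small intestine was taken, nor whether each array held RNA of a separate animal, so the p-values cover the variation among the samples, which may be technical.

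The arrays had median raw signals of 157 to 207 and 13536 to 14808 probes above background. Grem1 was above background on 5 of 5 Villin-Gremlin and 2 of 6 wild type arrays, with a log2 fold change of 7.84 ± 0.57 (SE). The enterocyte genes Vil1, Alpi, Apoa1, Apoa4, Anpep and Krt20 were detected on every array, while the probes of Fabp1 and Fabp2 were above background on none. On the second principal component of all kept probes, 1 array of each group stood away from the others, Villin-Gremlin 5 at -33.27 and wild type 1 at -42.83. Counts without this pair are given beside the main ones.

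Absorptive cells take up glucose and galactose at the brush border with sodium through SGLT1 (Slc5a1), take up fructose through GLUT5 (Slc2a5), and release hexoses to the blood through GLUT2 (Slc2a2). The Slc13 family carries sulfate and citric acid cycle intermediates with sodium. The Slc16 family holds the proton-linked carriers of lactate, pyruvate and ketone bodies, while Slc5a8 and Slc5a12 carry monocarboxylates with sodium. GLUT1 (Slc2a1) serves basal glucose uptake in many cell types.

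Promoter sequences are shown for the glucose carrier Slc5a1, for the neighbouring pair Slc5a4a and Slc5a4b, and for Slc2a1 and Slc2a6, because the first 3 genes gave lower and the other 2 gave higher signals in Villin-Gremlin villi. Each is the 250 bases before the RefSeq gene start (GRCm38.p6), on the strand of the gene, with the hypoxia core motif ACGTG or its reverse complement in capitals. The regions are chr5:33103969-33104218 (plus strand), chr10:76147201-76147450 (plus), chr10:76111019-76111268 (minus), chr4:119108495-119108744 (plus) and chr2:27027999-27028248 (minus).
Slc5a1: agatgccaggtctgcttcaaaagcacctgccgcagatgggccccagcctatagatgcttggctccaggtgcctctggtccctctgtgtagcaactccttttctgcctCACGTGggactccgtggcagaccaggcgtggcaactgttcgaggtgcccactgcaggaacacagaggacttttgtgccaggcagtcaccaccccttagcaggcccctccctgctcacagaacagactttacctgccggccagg
Slc5a4a: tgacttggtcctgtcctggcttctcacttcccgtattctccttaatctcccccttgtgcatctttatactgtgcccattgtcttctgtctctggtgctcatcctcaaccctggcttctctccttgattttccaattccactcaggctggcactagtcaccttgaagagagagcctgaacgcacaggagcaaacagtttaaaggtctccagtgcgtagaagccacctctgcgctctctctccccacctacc
Slc5a4b: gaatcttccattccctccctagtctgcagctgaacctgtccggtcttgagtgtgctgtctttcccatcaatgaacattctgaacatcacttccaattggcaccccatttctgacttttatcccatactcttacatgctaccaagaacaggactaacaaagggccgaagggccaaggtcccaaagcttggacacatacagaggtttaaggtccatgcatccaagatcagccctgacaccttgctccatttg
Slc2a1: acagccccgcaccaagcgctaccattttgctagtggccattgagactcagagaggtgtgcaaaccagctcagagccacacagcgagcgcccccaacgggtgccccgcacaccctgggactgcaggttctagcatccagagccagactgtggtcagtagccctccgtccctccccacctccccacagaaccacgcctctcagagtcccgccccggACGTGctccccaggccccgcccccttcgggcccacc
Slc2a6: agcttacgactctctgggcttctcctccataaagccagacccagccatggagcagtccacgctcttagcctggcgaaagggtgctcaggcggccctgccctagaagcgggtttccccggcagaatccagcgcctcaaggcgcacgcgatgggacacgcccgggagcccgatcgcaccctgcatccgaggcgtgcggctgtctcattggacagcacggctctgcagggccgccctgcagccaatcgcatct
Both strands were searched for 4 motifs: GTTAAT (an HNF1 half-site), CAAAGTCCA (HNF4), GGCGCC (a Smad element of BMP-responsive genes) and ACGTG. Over 27025 genes with a tabulated promoter these stood in 6.52%, 0.381%, 9.54% and 16.6% of the windows. Of the 14 measured members in the table, 0 held GTTAAT or CAAAGTCCA. Slc16a3 held GGCGCC, and Slc16a3, Slc2a1 and Slc5a1 held ACGTG. A match describes these letters and is not a binding site, and overlaps between motifs were not removed. The 2 ACGTG matches of Slc5a1 overlap on opposite strands and are the single stretch CACGTG. Only these exact letters were searched, so variants of the motifs are neither counted nor marked.

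Sodium-coupled sugar carriers were lower in Villin-Gremlin villi, and 2 facilitative carriers, Slc2a6 and Slc2a1, were higher by the widest margins among members. Of the 31 measured probes 17 changed (limma, Benjamini-Hochberg adjusted p under 0.05 over all 14203 kept probes), 5 higher and 12 lower. These were 4 genes higher and 10 lower, with no gene called in both directions and 7 measured genes not called. Among all kept probes 30.8% changed, 16.4% higher and 14.4% lower, against 54.8%, 16.1% and 38.7% of the measured carrier probes. The median log2 fold change was -0.51 for the carriers and -0.0011 for all kept probes. Changes of at least 2-fold that passed the test numbered 9 (3 higher, 6 lower), or 29.0%, against 9.73% of all kept probes (4.82% higher, 4.91% lower). The arrays of both groups did not overlap for 12 carrier probes, or 38.7%, against 18.9% of all kept probes. Without Villin-Gremlin 5 and wild type 1, 16 probes changed, 3 higher and 13 lower, and 29.6% of all kept probes did in that fit, 15.8% higher and 13.8% lower. The measured set is not all members: the measured probes of Slc2a6 and Slc2a3, 1 of 2 of Slc5a12 and 1 of 3 of Slc2a9 met the filter almost wholly through one genotype, so their difference is partly built into the filter.

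**Figure D1:**
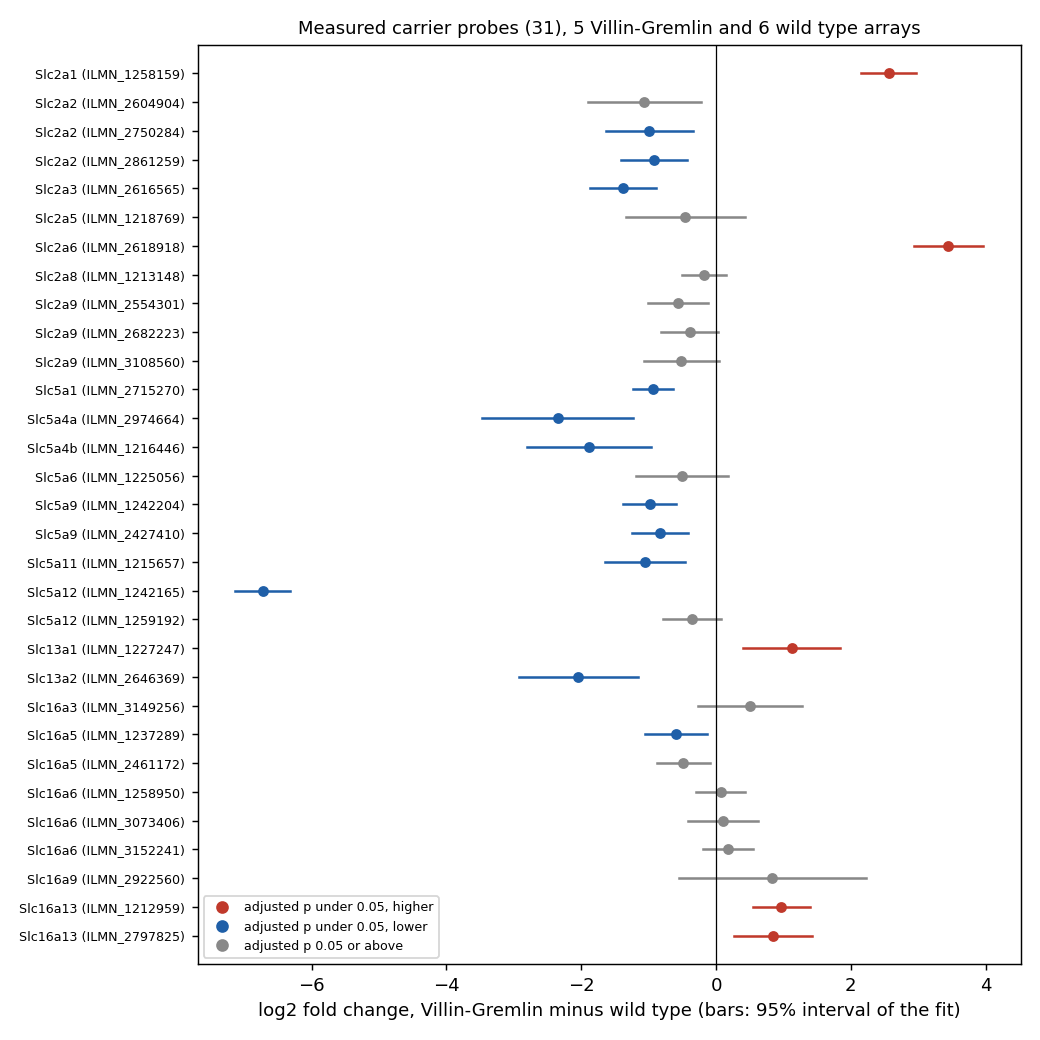
Log2 fold change (Villin-Gremlin minus wild type, x axis) with its 95% interval for each of the 31 measured carrier probes, grouped by family, with red for higher, blue for lower and grey for not called. The Slc5a probes all lie left of 0, with 1 Slc5a12 probe at -6.73, while Slc2a6 (3.45) and Slc2a1 (2.56) lie farthest right.

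The sodium-coupled sugar and inositol carriers fell in all 6 measured probes of 5 genes, 2 of them probes of Slc5a9. The arrays of the groups overlapped for 1 of these probes. Of all kept probes, 14.4% were lower and 18.9% had no overlap between the groups in either direction. Slc5a1, which brings in glucose and galactose, read 12.96, 12.74, 12.81, 12.69 and 12.29 (log2 normalized signal) on Villin-Gremlin arrays 1 to 5, against 13.49 to 13.86 on wild type arrays (median 13.57). It averaged 12.70 ± 0.25 (SD, n = 5) in Villin-Gremlin and 13.63 ± 0.14 (SD, n = 6) in wild type villi. This is 1.91-fold lower (log2 difference -0.93 ± 0.14 SE, adjusted p = 2.63e-04). Every Villin-Gremlin array lay below every wild type array, and Villin-Gremlin 5 was the lowest. The call was kept under all 23 other settings tried, between -1.06 and -0.83.

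Slc5a4a and Slc5a4b are mouse members of the SGLT3 branch, whose human relative acts as a glucose sensor rather than a transporter. They lie next to each other among protein-coding genes on chromosome 10. Slc5a4a read 8.89, 10.05, 7.84, 10.52 and 7.34 on Villin-Gremlin arrays 1 to 5, against 10.62 to 12.20 on wild type arrays (median 11.23). Slc5a4b read 10.80, 11.07, 8.62, 11.61 and 10.17 on the same Villin-Gremlin arrays, against 11.73 to 12.76 on wild type arrays (median 12.43). For both genes Villin-Gremlin 4 came closest to wild type, and Villin-Gremlin 3 was far down. Slc5a4a was 5.10-fold lower (-2.35 ± 0.52, adjusted p = 0.00421) and Slc5a4b 3.68-fold lower (-1.88 ± 0.43, adjusted p = 0.00474). Cross-hybridisation between these close paralogs was not tested, so they may not be 2 independent observations. The spread among Villin-Gremlin arrays, an SD of 1.37 and 1.15, was wider than that among wild type arrays, at 0.62 and 0.42.

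Slc5a9 encodes SGLT4, a carrier of mannose and related sugars. Its probe ILMN_1242204 read 9.27 ± 0.35 (SD, n = 5) in Villin-Gremlin and 10.26 ± 0.29 (SD, n = 6) in wild type villi (-0.99 ± 0.18 SE, adjusted p = 0.00146), and the groups did not overlap. The other probe, ILMN_2427410, read 9.02 ± 0.46 in Villin-Gremlin and 9.86 ± 0.20 in wild type villi (-0.83 ± 0.19, adjusted p = 0.00569), with Villin-Gremlin 4 at 9.64 above the lowest wild type array at 9.55. The probes thus gave the same direction and a like size. Slc5a11, the myo-inositol carrier SMIT2, read 10.26, 10.27, 9.54, 10.05 and 8.58 on Villin-Gremlin arrays 1 to 5, against 10.46 to 11.13 on wild type arrays (median 10.77). It was 2.07-fold lower (-1.05 ± 0.27, adjusted p = 0.0107), with no overlap and with Villin-Gremlin 5 lowest.

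Slc5a12, the sodium-coupled lactate carrier SMCT2, had the lowest log2 fold change and the smallest p of all 14203 kept probes. Its probe ILMN_1242165 had raw signals of 148 to 178 on Villin-Gremlin arrays and 2198 to 4348 on wild type arrays. After normalization it read 5.00, 4.54, 4.82, 4.64 and 4.80 on Villin-Gremlin arrays 1 to 5, against 10.73 to 11.85 on wild type arrays (median 11.58). Detection held on 0 of 5 Villin-Gremlin and 6 of 6 wild type arrays, so the signal in Villin-Gremlin villi has only an upper bound, and on the background-corrected scale it was at least 43.9-fold lower (adjusted p = 3.21e-10). The bound sets the wild type mean against the higher of the probe's own value and the lowest detected probe on each Villin-Gremlin array. The size depends on that correction: the fitted log2 fold change was -6.73 with it and -4.16, less than the bound, without it. The call held under the 22 other settings that tested it.

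The second Slc5a12 probe did not share this difference. ILMN_1259192, annotated to a separate cDNA record of the gene, read 7.09, 7.50, 6.53, 7.02 and 6.88 on Villin-Gremlin arrays 1 to 5, against 6.82 to 7.73 on wild type arrays (median 7.45). The groups overlapped, and the log2 fold change was -0.35 ± 0.20 (95% interval -0.78 to 0.07, adjusted p = 0.197). It was above background on all 11 arrays. Which transcript each probe reads was not analysed here. Slc5a6, the carrier of biotin and pantothenate, differed by -0.51 ± 0.31 (interval -1.19 to 0.17, adjusted p = 0.246) and did not pass the test, with wild type 5 and 6 highest at 11.67 and 11.45.

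**Figure D2:**
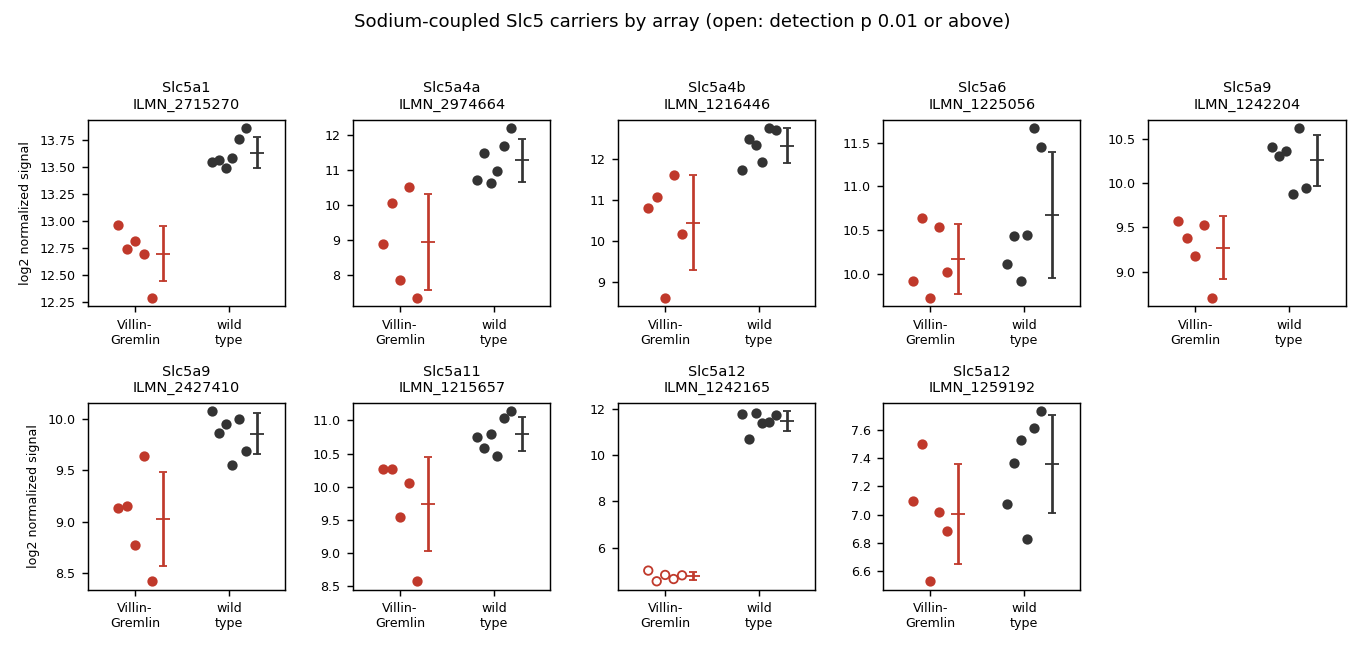
Log2 normalized signal (y axis, each panel with its own scale) on every array for the 9 measured Slc5a probes, Villin-Gremlin (red, n = 5) left of wild type (black, n = 6), with the mean and SD beside the points and open circles for arrays not above background. Slc5a12 probe ILMN_1242165 is at 4.54 to 5.00 in Villin-Gremlin and 10.73 to 11.85 in wild type villi, while its other probe overlaps between the groups.

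Markers of the villus tip were lower beside the Slc5a genes. Of 16 kept probes for 9 villus tip markers 10 were lower in Villin-Gremlin villi and 0 higher, and their mean log2 level per array was 8.60 to 10.02 in Villin-Gremlin and 10.17 to 11.38 in wild type villi. Of 8 kept enterocyte marker probes 3 were lower and 0 higher, with a median of -0.09. Among all kept probes 14.4% were lower and 16.4% higher. For the distal small intestine Cubn (-3.79) and Slc51b (-0.82) were lower and Nr1h4 (0.92) was higher, and Slc10a2 was never above background. Fabp6, also on the distal list, was above background on Villin-Gremlin 3 alone and was not tested. For the proximal part Cybrd1 was higher and Lct (-2.06) lower, while Gata4, Adh6a and Onecut2 did not pass the test. The kept Cybrd1 probe was above background on 5 of 5 Villin-Gremlin and 0 of 6 wild type arrays. It met the filter only through Villin-Gremlin arrays, so its difference is partly built into the filter. Its level was 10.63 and 10.71 on Villin-Gremlin 3 and 5, against 7.18, 7.58 and 7.94 on Villin-Gremlin 1, 2 and 4. The part of villus position, gut region and cell makeup in the fall of these carriers was not tested, and in bulk villi fewer cells of a type and less RNA per cell cannot be told apart.

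Of the 11 measured probes of facilitative Slc2a carriers 2 were higher (18.2%, near the 16.4% of all kept probes). Another 3 were lower (27.3%, against 14.4% of all kept probes). Slc2a6 (GLUT6), an intracellular hexose carrier found on lysosomes, read 8.64, 8.76, 9.78, 9.24 and 8.92 on Villin-Gremlin arrays 1 to 5, against 5.23 to 6.42 on wild type arrays (median 5.51). All 5 Villin-Gremlin arrays but only 1 of 6 wild type arrays, wild type 2, were above background. With each wild type value raised to the lowest detected level of its array, it was at least 7.71-fold higher on the background-corrected scale (adjusted p = 1.06e-06). The fitted log2 fold change was 3.45 ± 0.24 (SE), and 1.75, less than that bound, without background correction. Beside it, 2 of 4 kept probes of macrophage and dendritic cell markers (Fcer1g and Tyrobp) were lower and 0 higher. Both Lyz2 probes did not pass, and Csf1r and Itgax were not measured. The mean level of the kept probes was 6.04 to 7.12 in Villin-Gremlin and 7.20 to 8.45 in wild type villi. The part of these cells in the Slc2a6 difference was not tested.

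Slc2a1 (GLUT1) read 10.47, 10.67, 10.85, 10.08 and 10.78 on Villin-Gremlin arrays 1 to 5, against 7.42 to 8.38 on wild type arrays (median 8.11). Every Villin-Gremlin array lay above every wild type array, the nearest being 10.08 and 8.38. It averaged 10.57 ± 0.31 (SD, n = 5) in Villin-Gremlin and 8.005 ± 0.34 (SD, n = 6) in wild type villi, 5.91-fold higher (2.56 ± 0.19 SE, adjusted p = 1.80e-06), and ranked 40 among increases. Crypt and division markers were higher in 3 of 4 kept probes (Bub1b, Cdk1, Top2a), against 16.4% of all kept probes. Olfm4 differed by -0.01 ± 0.78 (SE) and did not pass the test, and Lgr5 and Ascl2 were never above background. The globin gene Hba-a1, a marker of blood in the samples, spread from 10.25 to 12.02 on Villin-Gremlin and 5.68 to 12.18 on wild type arrays. Its groups overlapped. The part of cell makeup in the Slc2a1 difference was not tested.

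Slc2a2 (GLUT2) had 3 measured probes with log2 fold changes of -0.92 to -1.06, of which 2 passed the test. ILMN_2861259 read 12.44, 12.38, 11.88, 12.35 and 11.31 on Villin-Gremlin arrays 1 to 5, against 12.50 to 13.39 on wild type arrays (median 12.999), 1.89-fold lower (-0.92 ± 0.23, adjusted p = 0.00829). Groups stood apart by a narrow margin, since Villin-Gremlin 1 was at 12.44 and wild type 1 at 12.50. ILMN_2750284 read 9.53, 9.49, 9.07, 9.78 and 8.25 on Villin-Gremlin arrays 1 to 5, against 9.45 to 10.90 on wild type arrays (median 10.10). Its groups overlapped, and it was 1.98-fold lower (-0.99 ± 0.30, adjusted p = 0.0227), a call lost without Villin-Gremlin 3 (adjusted p = 0.0517) and with no detection filter (0.0684). ILMN_2604904 read 10.09, 9.97, 8.83, 9.96 and 8.24 on Villin-Gremlin arrays 1 to 5, against 9.55 to 11.34 on wild type arrays (median 10.40). Here too the groups overlapped, and the difference was -1.06 ± 0.39 (adjusted p = 0.0524), which passed under 11 of 22 other settings, with adjusted p from 0.0244 to 0.190. The remaining probe, ILMN_2767739, was above background on no array.

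Slc2a5, the fructose carrier, did not pass the test. It read 7.50, 7.88, 7.90, 7.98 and 6.66 on Villin-Gremlin arrays 1 to 5, and 6.27, 8.03, 8.27, 8.02, 8.91 and 8.76 on wild type arrays 1 to 6 (-0.46 ± 0.41, 95% interval -1.34 to 0.42, adjusted p = 0.429). Wild type 1 alone lay below all Villin-Gremlin arrays, and without it the difference was -0.81 with an adjusted p of 0.0373. That was the only fit in which the gene passed. It stayed uncalled under 22 of the 23 other settings, among them the fit without both Villin-Gremlin 5 and wild type 1.

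Slc2a3 (GLUT3), the high-affinity carrier of neurons and leukocytes, read 5.34, 5.51, 5.76, 5.26 and 4.93 on Villin-Gremlin arrays 1 to 5, against 6.14 to 7.18 on wild type arrays (median 6.89). With detection on 0 of 5 Villin-Gremlin and 5 of 6 wild type arrays, it was at least 1.64-fold lower on the background-corrected scale (adjusted p = 6.01e-04). Its fitted log2 fold change was -1.38 there and -0.45, less than the bound, without background correction. T cell and intraepithelial lymphocyte markers were lower in 12 of 12 kept probes of 6 genes, against 14.4% of all kept probes. The mean level of these probes was 7.004 to 8.01 in Villin-Gremlin and 9.22 to 10.36 in wild type villi, with Cd8a and Gzmb never above background. The part of these cells in the Slc2a3 difference was not tested.

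Slc2a9, a urate carrier, had 3 measured probes that differed by -0.39 to -0.57, and 0 passed (adjusted p = 0.0529 to 0.149). Probe ILMN_2554301 passed without wild type 2 (-0.73, adjusted p = 0.00626) and with array weights (0.0426), ILMN_2682223 without wild type 4 (0.0230) and ILMN_3108560 without Villin-Gremlin 1 (0.0244). Slc2a8 (GLUT8), an intracellular carrier, differed by -0.18 ± 0.15 (interval -0.51 to 0.15).

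**Figure D3:**
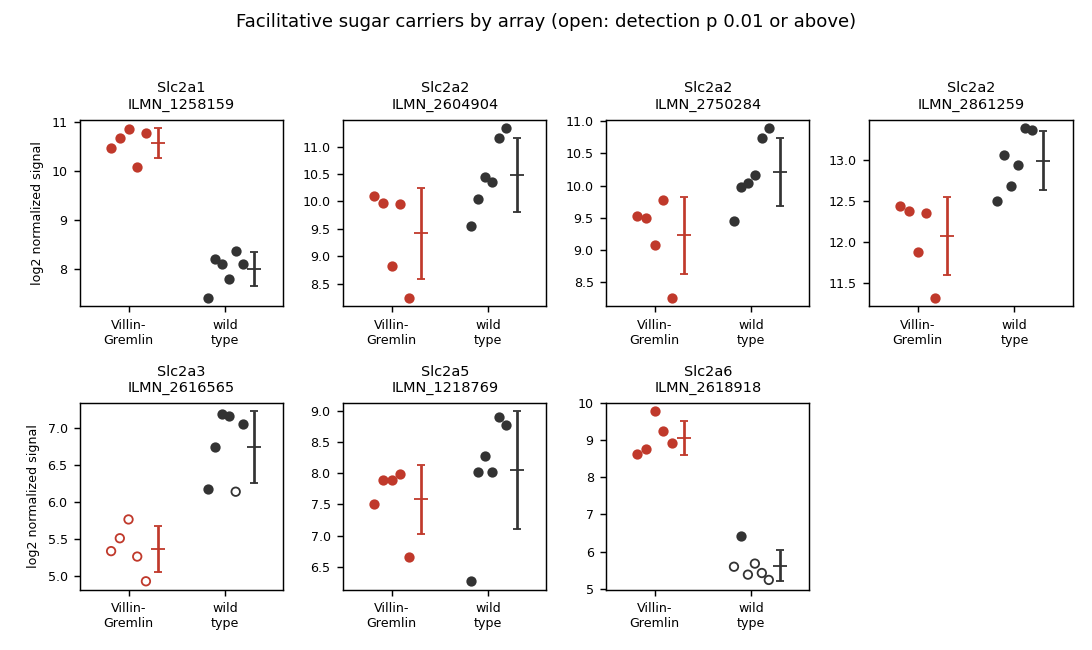
Log2 normalized signal (y axis, each panel with its own scale) on every array for probes of Slc2a1, Slc2a2, Slc2a3, Slc2a5 and Slc2a6, Villin-Gremlin (red, n = 5) left of wild type (black, n = 6), with mean and SD and with open circles for arrays not above background. Slc2a1 and Slc2a6 are higher on every Villin-Gremlin array than on any wild type array, and the low wild type point of Slc2a5 is wild type 1 at 6.27.

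The 2 measured Slc13a genes changed in opposite directions. Slc13a2 (NaDC1), which takes up citrate and succinate at the brush border, read 10.90, 11.33, 10.97, 11.29 and 9.36 on Villin-Gremlin arrays 1 to 5, against 11.75 to 13.87 on wild type arrays (median 12.66). It was 4.12-fold lower (-2.04 ± 0.41, adjusted p = 0.00217) with no overlap, and Villin-Gremlin 5 lay far under the others. Slc13a1 (NaS1), the sodium-sulfate carrier, read 8.88, 10.67, 9.73, 10.52 and 10.09 on Villin-Gremlin arrays 1 to 5, against 8.14 to 9.48 on wild type arrays (median 9.01). It was 2.18-fold higher (1.13 ± 0.33, adjusted p = 0.0212), although Villin-Gremlin 1 lay within the wild type range. Its call did not survive leaving out Villin-Gremlin 2 (adjusted p = 0.0560), nor the fits without Villin-Gremlin 4 (0.0562), without Villin-Gremlin 5 and wild type 1 (0.0699) and with no detection filter (0.0663). Blocking on the numbers in the sample descriptions lost the call too (0.0737). The call rests on ILMN_1227247, since the other 2 Slc13a1 probes were above background on no array.

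In the Slc16a family 3 of 9 measured probes passed (33.3%, near the 30.8% of all kept probes), 2 higher and 1 lower, and 0 reached a 2-fold change. Slc16a13, a member of the family with less studied substrates, was higher by both probes, at 0.97 ± 0.19 (ILMN_1212959, adjusted p = 0.00221) and 0.85 ± 0.27 (ILMN_2797825, adjusted p = 0.0282). The first averaged 8.62 ± 0.24 (SD, n = 5) in Villin-Gremlin and 7.65 ± 0.40 (SD, n = 6) in wild type villi with no overlap, while the second lost its call under 9 of 21 other settings (adjusted p 0.0118 to 0.0796). Without background correction they rose by 0.61 and 0.34. The second probe's calls were lost without Villin-Gremlin 1, 3, 4 or 5 (adjusted p = 0.0528, 0.0763, 0.0574 and 0.0504) or wild type 3 or 4 (0.0544 and 0.0539).

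Slc16a5 (MCT6) gave differences of like size by both probes, on either side of the threshold. ILMN_1237289 fell by 0.59 on the log2 scale (SE 0.21, adjusted p = 0.0479), and by 0.30 without background correction (adjusted p = 0.0751). It passed under 7 of 22 other settings, and among single arrays leaving out any Villin-Gremlin array or wild type 4, 5 or 6 lost the call (adjusted p up to 0.0989). ILMN_2461172 differed by -0.49 ± 0.18 (adjusted p = 0.0580) and passed under 7 of 23 other settings, among them without Villin-Gremlin 1 (0.0425), Villin-Gremlin 2 (0.0474) or wild type 1 (0.0419). Slc16a6 (MCT7) had 3 probes between 0.07 and 0.18, each with an interval of the difference within -0.42 to 0.62. Slc16a9, a carnitine carrier, differed by 0.84 ± 0.64 (adjusted p = 0.354) with wild type 1 at 5.76 and Villin-Gremlin 1 at 7.72 as the lowest arrays of their groups, and the measured probe of Slc16a3 (MCT4), which exports lactate, by 0.51 ± 0.36 (adjusted p = 0.309).

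**Figure D4:**
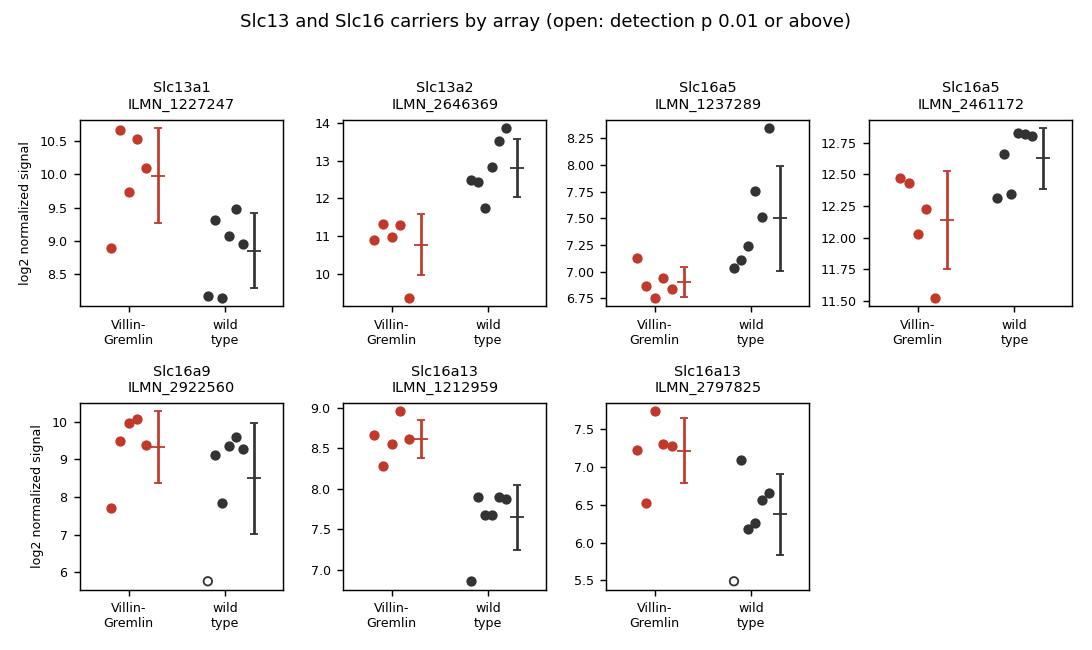
Log2 normalized signal (y axis, each panel with its own scale) on every array for probes of Slc13a1, Slc13a2, Slc16a5, Slc16a9 and Slc16a13, Villin-Gremlin (red, n = 5) left of wild type (black, n = 6), with mean and SD and with open circles for arrays not above background. Slc13a2 is lower on every Villin-Gremlin array, and the lowest Slc16a9 point, at 5.76, is wild type 1.

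The remaining 21 genes were not measured by any probe, and of the 37 unmeasured probes 33 were above background on no array. Among them was the only probe of Slc16a1 (MCT1), the main lactate and butyrate carrier of the gut, with raw signals of 160 to 204 on Villin-Gremlin and 163 to 189 on wild type arrays. These data therefore give no level for Slc16a1. Others with no array above background were Slc2a4, Slc2a12, Slc2a13 and Slc2a4rg-ps, Slc5a2, Slc5a3, Slc5a5, Slc5a7 and Slc5a10, Slc13a3, Slc13a4 and Slc13a5, and Slc16a4, Slc16a7, Slc16a8, Slc16a11, Slc16a12 and Slc16a14. Slc2a10 was above background on 1 Villin-Gremlin and 2 wild type arrays over its 2 probes, and Slc16a3 probe ILMN_3163569 on wild type 6 alone. Of the 2 probes of Slc5a8, the sodium-coupled short-chain fatty acid carrier, ILMN_2739384 was above background on wild type 1 alone, with a raw signal of 1670, against 145 to 190 on Villin-Gremlin arrays and 154 to 193 on the other wild type arrays.

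Members tended to share the same extreme arrays. Villin-Gremlin 5 was the lowest of its group for 15 of 31 measured probes (48.4%), against 29.8% of all kept probes. Wild type 1 was the lowest of its group for 13 (41.9%), against 26.8% of all kept probes, and wild type 6 the highest for 11 (35.5%), against 19.3%. Villin-Gremlin 1 was the highest of its group for 11 probes (35.5%, against 18.8% of all kept probes). Members are not replicates of each other, and these counts are a description with no test.

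Genes that work with the carriers also shifted in both directions. Of 67 listed partner genes 48 had a named probe, and of 54 kept probes of 39 genes 26 changed (48.1%, against 30.8% of all kept probes), 9 higher and 17 lower, or 6 genes higher and 13 lower. The median log2 fold change of these probes was -0.09. Among scaffolds, Pdzk1, which anchors brush border carriers, was lower by all 3 probes at 2.52, 3.18 and 2.66-fold (adjusted p = 1.20e-04, 9.05e-05 and 9.59e-05). Slc9a3r1 (NHERF1), a related scaffold, was 1.62-fold lower (adjusted p = 8.29e-04). Emb (embigin), a chaperone of Slc16 carriers above background on 3 of 5 Villin-Gremlin and 6 of 6 wild type arrays, was at least 2.08-fold lower (adjusted p = 0.00258) and the kinase gene Sgk1, which raises carrier activity, 2.22-fold lower (adjusted p = 0.00990). Arrdc4, an arrestin domain protein that limits glucose uptake, was 1.69-fold higher (adjusted p = 0.00179), while Txnip, of the same family, differed by 0.25 and 0.30 and did not pass.

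Lactate and ketone genes held the largest partner increases. Ldhd, a mitochondrial D-lactate dehydrogenase, was at least 4.71 and 3.77-fold higher by its probes, with wild type values raised to the lowest detected level of each array (fitted log2 fold change 2.60 ± 0.32 and 2.18 ± 0.33, adjusted p = 7.25e-05 and 3.62e-04), with detection in 5 of 5 Villin-Gremlin samples and in 2 and 3 of 6 wild type samples. Both Ldhd probes met the detection filter mainly through Villin-Gremlin arrays, so their difference is partly built into the filter. Oxct1, which starts ketone body use, was 2.63 and 2.91-fold higher (adjusted p = 2.04e-04 and 1.69e-04). Pdk4, which restrains pyruvate entry to the citric acid cycle, was 3.26-fold lower (adjusted p = 0.00456). Ldha differed by 0.11 ± 0.10 and Pdha1 by 0.22 ± 0.13, and neither passed.

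In the first steps of hexose use 3 of 12 probes were lower and 0 higher. Among all kept probes 30.8% changed, with 14.4% of all kept probes lower in Villin-Gremlin villi and 16.4% higher. Slc37a4, the glucose 6-phosphate carrier of the endoplasmic reticulum, was 2.33-fold lower (adjusted p = 0.00187). Galm, of galactose use, was 1.45-fold lower (adjusted p = 0.0281), and Khk, which phosphorylates fructose, was lower by 1 of its 2 probes (1.47-fold, adjusted p = 0.0235). Tkfc, G6pc, Galt, Mlx and Mlxipl did not pass. Of the brush border sugar enzymes Lct (lactase) was 4.16-fold lower (adjusted p = 2.90e-04) and Treh (trehalase) 1.30-fold lower (adjusted p = 0.0386), while both probes of Sis missed the threshold.

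The sodium pump subunit gene Atp1b3 was 1.34-fold higher (adjusted p = 0.0346) and Atp1b1 differed by -0.30 ± 0.14. The sodium-proton exchanger Slc9a2 was lower by 2 of 3 probes (1.66 and 1.92-fold) and the third differed by 0.34. Around sulfate and citrate, Papss1, which makes the activated sulfate donor, was 1.99 and 1.62-fold lower (adjusted p = 0.00869 and 0.0478), and the anion exchanger Slc26a6 was 1.34-fold lower (adjusted p = 0.0454). The mitochondrial citrate carrier Slc25a1 was 1.46 and 1.47-fold higher (adjusted p = 0.00350 and 0.00691), and Slc35b2, which moves activated sulfate into the Golgi, 1.504-fold higher (adjusted p = 0.00260).

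**Figure D5:**
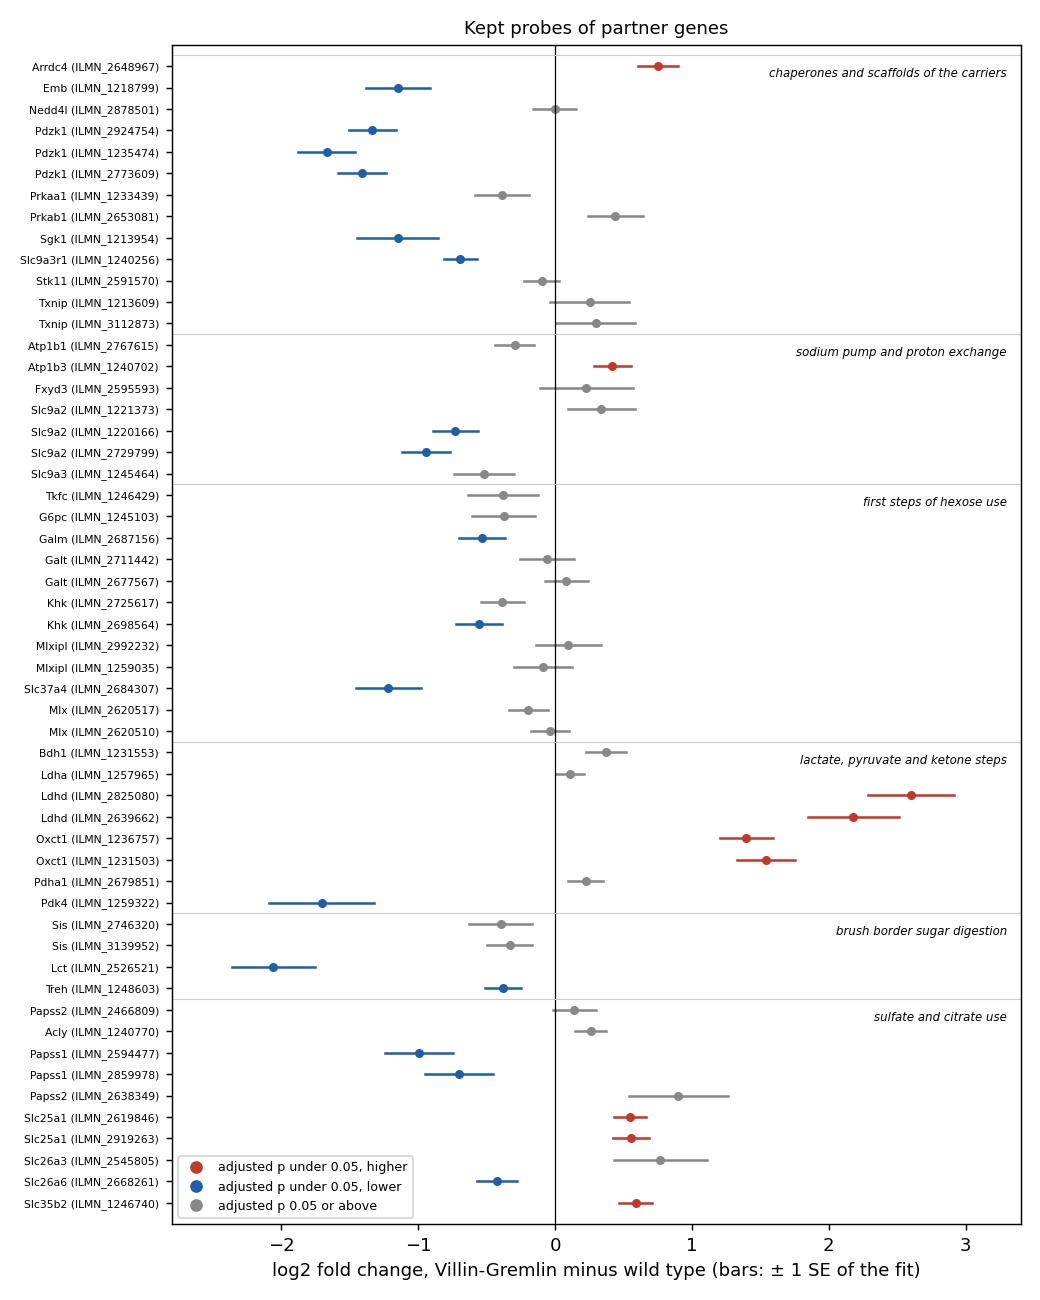
Log2 fold change (Villin-Gremlin minus wild type, x axis) with ± 1 SE for the 54 kept probes of partner genes, in the 6 lists used, with red for higher, blue for lower and grey for not called. Ldhd reaches 2.60 and Oxct1 1.54 on the right, and Lct is at -2.06 and Pdk4 at -1.70 on the left.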

How the data were processed

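Small intestinal villi of Villin-Gremlin (5 samples) and wild type mice (6 samples) were profiled on Illumina bead arrays. The deposited signal table holds, per the file headers, the mean bead intensity and a detection p-value for each probe, with a lowest signal of 119. A second deposited table holds the authors' processed log2 values, with no method of normalization given in the sources. Every column correlated most closely with the signals of the array it is labelled as (0.983 to 0.990 over kept probes), with medians of 5.04 to 5.13 and a slope of 1.05 over bright probes. Its scale is log2 without centring by gene, while its background step and normalization method are unknown. Gene names came from the platform annotation (34885 with 1 gene symbol, 18 with several, 10378 with none), and all 68 member probes matched RefSeq (GRCm38.p6) with 0 symbols changed.

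Here the signals went through neqc (R 4.3.3, limma 3.58.1; normal-exponential background from the detection p-values, offset 16, quantile normalization, log2). A probe was kept when 5 or more arrays had a detection p under 0.01 (14203 probes). lmFit and eBayes compared Villin-Gremlin with wild type for each probe without covariates, and a call was a Benjamini-Hochberg adjusted p under 0.05 over all kept probes. Fits were tested on simulated data. Measured members are all named. For those called at a log2 fold change of at least 1, and for the measured probes of Slc5a1, Slc2a2 and Slc2a5, each Villin-Gremlin value is given with the wild type range and median (Slc2a5: all values), and for Slc16a1 the raw signal ranges. Members, lists and tests were chosen with earlier results of these data known. The alternatives left out the background correction, raised the offset to 50, scaled by medians, used the authors' log2 values, or took other detection filters, 1 probe per gene, array weights, a trended robust prior, the replicate number as a block, or 1 array fewer at a time on the same normalized values. Leaving out both Villin-Gremlin 5 and wild type 1, and blocking on the numbers in the sample descriptions, were added after seeing the data. The number of arrays limits the precision.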

Additional observations from a re-analysis of the deposited data

Results flagged for a closer look

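For 64 groups of 5 or 6 arrays with at least 1 array above background, each member probe was examined for an array far from the others of its group, and 7 stood out. Chance flags about 1 in 20 groups that were not chosen by their values. That rate does not apply to the wild type groups of Slc5a8, Slc2a6 and Slc16a3 ILMN_3163569, which entered through the 1 array that stood out. Wild type 1 did so for 3 probes, low for Slc2a5 at 6.27 (log2; the other wild type arrays read 8.02 to 8.91), low for Slc16a13 probe ILMN_1212959 at 6.86 (others 7.67 to 7.90), and high for Slc5a8 probe ILMN_2739384 at 10.31 (others 4.61 to 5.19). Villin-Gremlin 5 was low for Slc13a2 at 9.36 (others 10.90 to 11.33). Wild type 2 was high for Slc2a6 at 6.42 (others 5.23 to 5.67), wild type 3 for Slc16a6 probe ILMN_1258950 at 11.60 (others 10.90 to 11.12) and wild type 6 for Slc16a3 probe ILMN_3163569 at 6.48 (others 5.50 to 5.73).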

How the results depend on the processing

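Of the 17 called carrier probes 11 kept their call in every setting that tested them (22 or 23 each, since filters remove some probes), and of the 14 uncalled ones 8 stayed uncalled in theirs; no probe that was called under any setting changed direction. The count of higher probes was 5 in the main analysis and 3 with no detection filter, with detection on all arrays, or without Villin-Gremlin 5 and wild type 1. With no detection filter the median of all 68 member probes was -0.055, since undetected probes enter it. With 1 array left out, 14 to 20 carrier probes changed, 3 to 5 higher (3 without Villin-Gremlin 4) and 10 to 15 lower, the median lay between -0.62 and -0.39, and 22 to 25 partner probes changed. With the replicate number as a block, 12 carrier probes changed (4 higher, 8 lower; all kept probes 24%, 13.1% and 10.9%), the median was -0.42 and 23 partner probes changed. Calls lost there were Slc2a2 ILMN_2861259 (adjusted p = 0.0530) and ILMN_2750284 (0.102), Slc5a11 (0.0531), Slc16a13 ILMN_2797825 (0.0716) and Slc16a5 ILMN_1237289 (0.107). Same-numbered arrays correlated between -0.21 and 0.12 in their deviations from the group means and 1 of 5 matched its own number best, so these numbers give no pairing. The numbers in the sample descriptions pair the arrays otherwise (Villin-Gremlin 1 with wild type 2, and so on). Those pairs correlated between -0.16 and 0.12, 0 of 5 best with their own, and blocking on them, added after seeing the data, gave 16 changed carrier probes (4 higher, 12 lower), a median of -0.62 and 25 partner probes; Slc13a1 (0.0737) and Slc16a5 ILMN_1237289 (0.0515) lost their calls. With median scaling 3398 of all 14203 kept probes changed, 1515 higher and 1883 lower, against 4378, 2328 and 2050, and 18 of 54 partner probes changed, against 26. Under median scaling 1 carrier probe, Slc2a2 ILMN_2604904, gained a call and 0 lost theirs. With 1 probe per gene, 2792 of 8234 genes changed, and no carrier count is given for that fit. Shares over all kept probes are not given for the fits with 1 array left out, other detection filters or the description-number block. Carrier counts from those fits therefore only describe how member calls moved. Signals near background limit the sizes given for Slc2a6, Slc2a3, Slc5a12, Ldhd and Emb.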
